A study of Homo sapiens with 8 samples.

Results

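RNA was compared between cells with a shortened SUN2, a protein of the inner nuclear membrane, and cells in which SUN2 was knocked out. The compared libraries are those labelled Kashlid (2 libraries) and SUN2KO (2 libraries), 4 of the 8 libraries in the deposited count table, and the question was which knockout changes went back toward WT in Kashlid, which went further and which differences were new. The 2 WT libraries serve to place each change, and the 2 LBD libraries, from the other truncation, show where Kashlid differs from it. All libraries came from MDA-MB-231, an established human line of triple-negative breast cancer, with 10000000 cells in each sample.

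In Kashlid, SUN2 lacks residues 569 to 585, which was meant to break its link with Nesprin-2G. In LBD, short for lamin binding domain, it lacks residues 1 to 139, which was meant to break its link with the lamins. SUN2KO is the knockout and WT the wild type line. The sources used here do not give how the shortened forms were introduced, whether full-length SUN2 was still made beside them, or whether a line is a single clone. They also do not describe the 2 replicates of a group as separate cultures, so p-values here measure the spread between libraries, which may be technical.

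SUN2 spans the inner nuclear membrane and faces both ways. Its amino-terminal part meets the lamina inside the nucleus, and its carboxy-terminal SUN domain holds the KASH tails of nesprins in the space between the nuclear membranes, with a flexible loop of the SUN domain, the KASH lid, closing over the bound peptide. Nesprins in turn bind actin, microtubules and intermediate filaments, so the pair (the LINC complex) carries force between the cytoskeleton and the nucleus. In adherent cancer cells such as these, that link is known for its part in nuclear shape, migration and adhesion.

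Depth was even, at 16570099 to 18814795 counts per library, and between 16588 and 16805 genes had a count. After the low-count filter, 14016 of 25369 genes were tested. The labels call the cells epithelial. Markers of a mesenchymal line were present in every library, from 4857 to 7177 counts for VIM and from 5532 to 7033 for CD44, and KRT8 had 17891 to 30837 counts. The epithelial cadherin CDH1 had 10 to 29 counts, the luminal markers PGR and KRT19 at most 1 and 5, and TFF3 had 0. Other luminal markers were present, with 7624 to 13059 counts for KRT18, 1660 to 1840 for XBP1, 896 to 1596 for ELF3 and 187 to 398 for FOXA1. So were the epithelial genes KRT7, DSP and JUP, at 7979 to 16201, 6212 to 7159 and 5461 to 7134 counts. The 15 luminal markers summed to 1822 to 2004 CPM (counts scaled to a library of common size) in Kashlid, 2501 to 2565 in SUN2KO and 1652 to 1681 in WT. The 9 mesenchymal markers summed to 2006 to 2124 CPM in Kashlid, 2167 to 2180.1 in SUN2KO and 2258 to 2316 in WT. Of these 9, 0 rose and 3 fell in Kashlid against SUN2KO, or 1 without SUN2KO replicate 2: SPARC (adjusted p = 1.82e-07), CAV1 (0.00254, and 0.0543 without SUN2KO replicate 2) and ANXA1 (0.0155, 0.149 without SUN2KO replicate 2 and 0.0725 without Kashlid replicate 1). As the labels also mention HEK293T cells, 9 HEK293-type markers were also followed. Of these, SOX2 and ST8SIA2 had 0 counts in every library, and the summed level was 48.6 to 54.7 CPM in Kashlid, 76.3 to 92.9 in SUN2KO and 46.7 to 63.4 in WT, most of it GAL, a secreted neuropeptide. GAL had 43.1 and 48.3 CPM in Kashlid, 71.9 and 86.7 in SUN2KO and 55.2 and 38.0 in WT (Kashlid against SUN2KO log2 fold change -0.80 ± 0.12, adjusted p = 4.84e-05). The part of these markers in the results was not tested, and in bulk RNA fewer cells of a kind and less RNA per cell cannot be told apart.

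The targeted gene was examined first. SUN2 (chromosome 22, 39130719 to 39151467 on hg19) had 37.2 and 35.4 CPM in the Kashlid libraries, 25.6 and 30.3 in SUN2KO and 83.7 and 81.9 in WT. Both Kashlid libraries lay above both SUN2KO libraries and far below WT. The log2 fold change of Kashlid over SUN2KO was 0.37 ± 0.09 (SE), with adjusted p = 0.00384 by edgeR's quasi-likelihood test with Benjamini-Hochberg adjustment over all genes. Without SUN2KO replicate 1 the call was lost (adjusted p = 0.125). In what follows, log2FC stands for the log2 fold change of Kashlid over SUN2KO with its SE unless another comparison is named, p-values are from this test, and CPM values are given for replicates 1 and 2 of a group. Gene-level counts measure neither the protein nor which form of the transcript was present.

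Against the knockout, 2529 of 14016 genes were called at adjusted p under 0.05 (18.0%), 1250 of them higher in Kashlid (8.92%) and 1279 lower (9.13%). With library size as the only scaling the same comparison gave 1574 higher and 996 lower, so the balance of directions depends on the scaling. The 2 SUN2KO libraries weigh on the count: 1186 genes were called without SUN2KO replicate 1 and 1622 without SUN2KO replicate 2. Differences of at least 2-fold were found in 320 genes (2.28%), of which 206 were higher in Kashlid (1.47%) and 114 lower (0.813%).

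Each called gene was then placed by its difference between SUN2KO and WT, called here a knockout change. Words such as returned, or raised and lowered by the knockout, compare levels between lines. Whether Kashlid was made from the knockout line is not given. SUN2KO against WT had 5137 calls (36.7%), of which 2455 were higher (17.5%) and 2682 lower (19.1%), and Kashlid against WT had 6232 (44.5%), with 3047 higher (21.7%) and 3185 lower (22.7%). Of these knockout changes, 738 returned toward WT in Kashlid, that is, they were called in Kashlid against SUN2KO with the opposite sign (14.4% of the knockout changes and 29.2% of the Kashlid calls). Another 486 went further in the direction of the knockout (9.46% and 19.2%). For the remaining 3913 (76.2%), there was no call between Kashlid and SUN2KO, which does not show that they were alike. Apart from knockout changes, 1033 genes were new: called in Kashlid against both SUN2KO and WT with the same sign, with no call in SUN2KO against WT (40.8% of the Kashlid calls). A last 272 genes were called in Kashlid against SUN2KO alone and could not be placed. The comparisons share the SUN2KO libraries, and those that place a gene against WT share the WT libraries, so the sizes of these classes are descriptions. Without SUN2KO replicate 1, the returned class held 341 genes, the further class 184 and the new class 584. Without SUN2KO replicate 2, the returned class held 450 and the further class 222. Leaving out WT replicate 1 left 312 genes in the further class, and leaving out WT replicate 2 left 488 in the returned class.

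**Figure D1:**
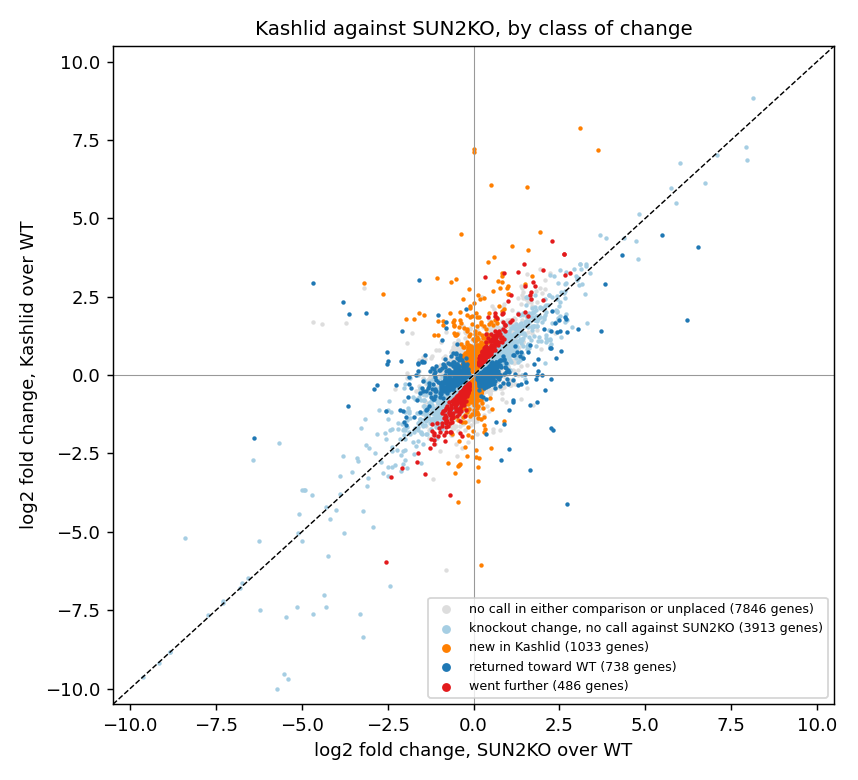
Log2 fold change of SUN2KO over WT (horizontal) and of Kashlid over WT (vertical) for the 14016 genes tested, 1 point per gene, coloured by class; on the dashed diagonal Kashlid equals SUN2KO. Both axes share the WT libraries. The 738 returned genes lie between the diagonal and the horizontal zero line or beyond it, the 486 further genes on the far side of the diagonal, and the 1033 new genes along the vertical zero line.

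Most of the 738 returned genes came back to a level not called against WT (490 genes), 165 were still called on the knockout side, and 83 had passed WT to the other side. The class was balanced, with 388 genes higher in Kashlid than in SUN2KO and 350 lower, and with a median absolute log2 difference of 0.38. The further class held 201 higher and 285 lower genes, and the new class 518 higher and 515 lower. Changes of at least 2-fold between Kashlid and SUN2KO numbered 108 among the returned, 34 among the further and 150 among the new genes.

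Of the larger knockout changes, most of the size was left in Kashlid. Among 630 genes changed at least 2-fold by the knockout (4.49% of all; 2.23% higher and 2.27% lower), the median share of the log2 change left in Kashlid was 88.9% (quartiles 54.4% and 112%), with 92.2% for the 312 raised genes and 82.7% for the 318 lowered genes. Of the 630, 126 returned, 39 went further and 465 had no call against SUN2KO. Since the genes were chosen by their SUN2KO values, and both changes use the same WT libraries, these shares carry no test. Named after their values were seen, the genes with the largest knockout changes and no call against SUN2KO included TC2N, which had 29.6 and 26.8 CPM in Kashlid, 22.9 and 25.9 in SUN2KO and 2.62 and 2.44 in WT. SRPX2, a secreted sushi-repeat protein, had 10.1 and 10.3 CPM in Kashlid, 12.8 and 11.7 in SUN2KO and 1.49 and 1.25 in WT. On the lowered side, TUSC3, a subunit of the oligosaccharyltransferase that glycosylates proteins in the endoplasmic reticulum, had 1.45 and 2.11 CPM in Kashlid, 2.06 and 1.34 in SUN2KO and 54.3 and 63.2 in WT. KATNAL2, a katanin-like ATPase, had 2.60 and 1.76 CPM in Kashlid, 3.41 and 2.74 in SUN2KO and 19.6 and 18.5 in WT. In these 4 genes the Kashlid values sat beside the SUN2KO values and apart from WT. The differences of Kashlid from SUN2KO were 0.21 ± 0.11, -0.26 ± 0.14, 0.06 ± 0.28 and -0.49 ± 0.26 on the log2 scale. RNF125, a ubiquitin ligase, and RCN3, a calcium-binding protein of the secretory pathway, were 0.45 ± 0.17 and 1.25 ± 0.45 (adjusted p = 0.0731 and 0.061); RNF125 passed without Kashlid replicate 2 (0.0153), and RCN3 passed without Kashlid replicate 1 (0.0416) and without SUN2KO replicate 2 (0.015).

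**Figure D2:**
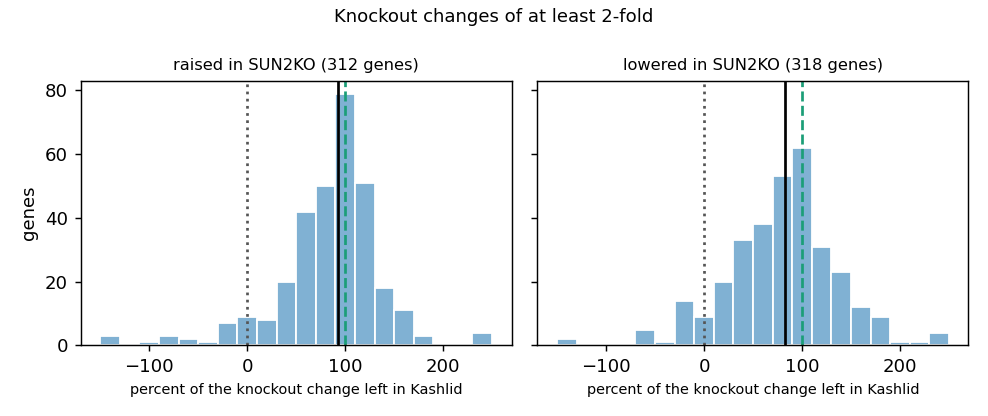
Share of the knockout's log2 change that remained in Kashlid, in percent, for the 312 genes raised and the 318 lowered at least 2-fold in SUN2KO (number of genes on the vertical axis; values past the axis ends are drawn in the end bars). The solid line is the median (92.2% and 82.7%), the dashed line the SUN2KO level at 100 and the dotted line the WT level at 0.

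Of 45 measured interferon-stimulated genes, 25 were higher in Kashlid than in SUN2KO, among them RSAD2 by 34.7-fold and ISG15 by 4.71-fold. Type I interferons act through the receptor chains IFNAR1 and IFNAR2 and the kinases JAK1 and TYK2 to form a complex that holds STAT2 and IRF9 and binds a response element in the promoters of antiviral effector genes. Some of these genes also answer directly to IRF3 downstream of RNA and DNA sensors. Beside the 25 of the list that rose in Kashlid against SUN2KO, 2 fell and 18 did not pass, where 8.92% of all genes rose and 9.13% fell, and the list's median log2 fold change was 0.27 against 0.01 for all genes. In SUN2KO against WT, 7 of the 45 were higher and 9 lower, near the shares over all genes (17.5% higher and 19.1% lower). By class, 15 of the 45 were new, 6 returned, 6 went further and 4 were knockout changes with no call against SUN2KO. Of all 14016 genes, 1033 were new, 738 returned, 486 went further and 3913 had a knockout change without that call. Class counts of later lists stand beside these same numbers. For every list that follows, the shares over all genes in Kashlid against SUN2KO are the same 8.92% higher and 9.13% lower. Those in SUN2KO against WT are 17.5% and 19.1%.

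Promoters of 6 of these genes are shown, because this element is the sequence their regulation is known for: 60 bases upstream of the start of each gene, on the gene's strand, with the motif in capitals (GAAA, any 2 bases, GAAA, or the reverse complement TTTC, any 2 bases, TTTC) wherever it lies whole in the window (overlapping in ISG15). Sequences are from RefSeq on GRCh38.p14, at chr10:89392495-89392554 (plus strand) for IFIT1, chr10:89327850-89327909 (plus) for IFIT3, chr1:1013365-1013424 (plus) for ISG15, chr1:78620350-78620409 (plus) for IFI44L, chr4:168318771-168318830 (minus) for DDX60 and chr4:88457020-88457079 (plus) for HERC5.
IFIT1: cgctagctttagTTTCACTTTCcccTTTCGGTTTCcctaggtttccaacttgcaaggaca
IFIT3: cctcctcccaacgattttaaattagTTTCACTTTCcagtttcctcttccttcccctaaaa
ISG15: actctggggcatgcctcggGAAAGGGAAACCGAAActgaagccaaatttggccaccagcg
IFI44L: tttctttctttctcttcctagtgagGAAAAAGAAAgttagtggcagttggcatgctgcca
DDX60: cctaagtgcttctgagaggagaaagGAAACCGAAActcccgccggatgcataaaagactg
HERC5: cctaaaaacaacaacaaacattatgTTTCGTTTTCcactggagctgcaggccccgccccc

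The motif, searched on both strands in 300 bases of promoter (250 before and 50 after the start), was found in 294 of 10037 promoters of tested genes (2.93%). It was in 15 of 20 promoters of list members that rose in Kashlid (75.0%) and in 8 of 15 of the other members (53.3%). The promoters shown above all hold the motif, while RSAD2 and STAT2, which also rose, had 0 matches. Among genes at least 2-fold higher in Kashlid than in SUN2KO, 17 of 131 promoters held it (13.0%), and among those at least 2-fold lower 3 of 78 (3.85%). The returned, further and new classes as wholes were near the background, at 2.60%, 3.39% and 3.92%. A match describes letters in this window only.

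Of the effectors, RSAD2 encodes viperin, an antiviral radical-SAM enzyme, and had 10.1 and 9.15 CPM in Kashlid, 0.216 and 0.322 in SUN2KO and 2.44 and 2.44 in WT. OAS2, an oligoadenylate synthetase that senses double-stranded RNA, had 15.9 and 17.7 CPM in Kashlid, 0.595 and 0.752 in SUN2KO and 2.68 and 1.42 in WT. In both genes the knockout had lowered the level and Kashlid stood above WT, so that they were returned by the rule and had passed WT. The log2 fold changes of Kashlid over SUN2KO were 5.12 ± 0.29 and 4.63 ± 0.24 (edgeR adjusted p = 6.59e-11 and 1.36e-11), from 4 and 6 counts of RSAD2 and 11 and 14 of OAS2 in the SUN2KO libraries. IFIT2 (log2FC 2.34 ± 0.08), IFIT3 (log2FC 2.32 ± 0.10) and DDX60 (log2FC 2.01) were placed likewise, with adjusted p of at most 1.68e-12. For IFIT2 the authors' deposited DESeq2 test did not call SUN2KO against WT (log2 fold change -0.23, adjusted p = 0.24), so its place depends on the test.

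In the new class, the knockout had made no called difference and Kashlid was higher than both. IFI44L had 16.1 and 20.3 CPM in Kashlid, 1.73 and 3.28 in SUN2KO and 2.79 and 2.67 in WT. OASL, an oligoadenylate synthetase-like protein, had 249 and 273 CPM in Kashlid, 47.7 and 49.3 in SUN2KO and 43.3 and 45.3 in WT. IFIT1, which binds viral RNA caps, had 78.8 and 81.7 CPM in Kashlid, 13.9 and 19.1 in SUN2KO and 17.8 and 15.1 in WT. All 3 were called at log2FC of 2.86 ± 0.20, 2.43 ± 0.07 and 2.28 ± 0.11 (adjusted p of at most 1.78e-09), and in each the SUN2KO and WT libraries lay close together. ISG15, the ubiquitin-like modifier, had 158 and 182 CPM in Kashlid, 35.7 and 36.4 in SUN2KO and 29.3 and 33.5 in WT (4.71-fold over SUN2KO, adjusted p = 4.54e-12). MX2, a dynamin-like antiviral GTPase, rested on few reads, with 31 and 37 counts in Kashlid and 3 and 3 in SUN2KO (log2FC 3.56 ± 0.53, adjusted p = 6.15e-05). HERC5, the ligase that attaches ISG15, went further: 90.1 and 92.7 CPM in Kashlid, 33.3 and 34.7 in SUN2KO and 25.2 and 25.7 in WT (log2FC 1.43 ± 0.07, adjusted p = 4.65e-12).

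The signalling chain above the effectors moved less. IFNB1, the interferon most often made by non-immune cells, had 0 and 7 counts in Kashlid, 0 and 0 in SUN2KO and 0 and 2 in WT, and the lambda interferon gene IFNL1 had 4 and 1 counts in Kashlid, 0 and 0 in SUN2KO and 1 and 0 in WT, too few to test. IRF9 had 13.3 and 16.5 CPM in Kashlid, 11.4 and 13.8 in SUN2KO and 10.8 and 9.60 in WT and was not called at 0.24 ± 0.14 (adjusted p = 0.242), while STAT2 was higher in Kashlid (log2FC 0.26 ± 0.07, adjusted p = 0.0137), though not without SUN2KO replicate 1 (0.0801) or replicate 2 (0.104). JAK1 fell to 107 and 102 CPM in Kashlid, against 140.4 and 137 in SUN2KO and 159 and 156 in WT (log2FC -0.41 ± 0.05, adjusted p = 1.63e-05). IFNAR1 (log2FC -0.24 ± 0.08), TYK2 (log2FC 0.19 ± 0.06) and the transcription factor IRF1 (log2FC 0.39 ± 0.12) were called at adjusted p = 0.0345, 0.0319 and 0.0303, and each lost its call without SUN2KO replicate 1 (0.442, 0.336 and 0.286) and in DESeq2. IFNAR1 and IRF1 also lost it without Kashlid replicate 1 (0.233 and 0.173), TYK2 without Kashlid replicate 2 (0.149), and IFNAR1 without WT replicate 2 (0.0527). IFNAR2 and IFNLR1 were at -0.03 ± 0.10 and 0.21 ± 0.17 with no call. These pathway genes and ligands were picked after their values were seen.

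Among 14 measured genes of nucleic acid sensing, 2 rose and 0 fell, with a median of 0.02 (-0.04 without Kashlid replicate 1, and below 0 without either SUN2KO library). They were DHX58, an RNA helicase of the RIG-I family (log2FC 2.43 ± 0.53, 20 and 31 counts in Kashlid and 6 and 4 in SUN2KO, adjusted p = 0.00253), and IFI16, a DNA sensor (log2FC 0.44 ± 0.05, adjusted p = 5.57e-06). DDX58, the sensor RIG-I itself, stood in the interferon list and had 51.2 and 44.0 CPM in Kashlid, 11.1 and 14.2 in SUN2KO and 12.8 and 13.2 in WT. MB21D1 (cGAS), TMEM173 (STING), MAVS and TBK1 were not called. Of 19 genes of MHC class I presentation, 2 rose and 2 fell, near the shares over all genes (8.92% higher and 9.13% lower). CALR and PDIA3, which are also endoplasmic reticulum chaperones, rose (log2FC 0.27 ± 0.04 and 0.22 ± 0.05), and B2M, the light chain, and TAPBP, tapasin, fell (log2FC -0.19 ± 0.04 and -0.18 ± 0.05, all at adjusted p of at most 0.0245). TAPBP lost its call without Kashlid replicate 1 (0.128), without either SUN2KO library (0.17 and 0.0757) and with library size only (0.0599).

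**Figure D3:**
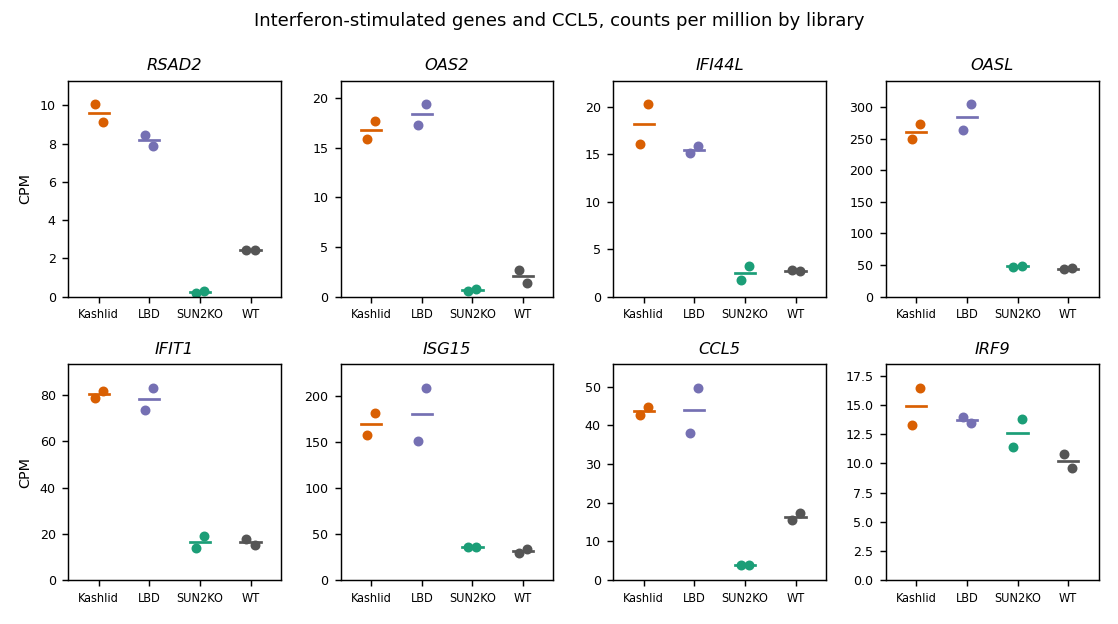
CPM in each library (points, 2 per group; short lines are group means) of 6 interferon-stimulated genes, the chemokine gene CCL5 and IRF9, in Kashlid, LBD, SUN2KO and WT. In the first 7 genes both Kashlid libraries lie above both SUN2KO and both WT libraries, with OASL at 249 and 273 CPM against 47.7 and 49.3 in SUN2KO; IRF9 was not called, with 13.3 and 16.5 CPM in Kashlid against 11.4 and 13.8 in SUN2KO.

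The calls among chemokine and cytokine genes driven by NF-kB were all on the higher side. Of 24 listed, 14 were measured, of which 8 rose and 0 fell (5 rose under the stricter filter, which drops several of them), with a median of 0.98 (0.65 without Kashlid replicate 1). CCL5, a T cell chemokine, had 42.8 and 44.8 CPM in Kashlid, 3.90 and 3.81 in SUN2KO and 15.5 and 17.3 in WT (log2FC 3.50 ± 0.14, adjusted p = 1.86e-13). It was thus below WT in SUN2KO and above WT in Kashlid. CXCL10 and CXCL11, the interferon-inducible T cell chemokines, had 81 counts against 1 and 100 against 2 over the 2 libraries of Kashlid and of SUN2KO, ratios of 89.6 (95% counting interval 15.6 to 3581) and 55.3 (14.9 to 463). CXCL8, the neutrophil chemokine, had 61.1 and 15.5 CPM in Kashlid, 7.47 and 4.89 in SUN2KO and 11.6 and 11.5 in WT (log2FC 2.63 ± 0.38, adjusted p = 4.59e-05). IL6 had 33.2 and 9.38 CPM in Kashlid, 4.44 and 4.94 in SUN2KO and 6.72 and 7.33 in WT (log2FC 2.18 ± 0.35, adjusted p = 0.000114). For both cytokines Kashlid replicate 1 was far above replicate 2, so the size of the rise differed between the libraries. The rest of the machinery was quieter: among 18 NF-kB subunits and feedback genes 2 rose (4 without Kashlid replicate 2) and 0 fell, with a median of 0.09 (-0.02 without Kashlid replicate 1, 0.20 without Kashlid replicate 2 and 0.06 without SUN2KO replicate 2). These were TNFAIP3, encoding the inhibitor A20, at 65.7 and 37.8 CPM in Kashlid, 25.8 and 25.2 in SUN2KO and 109 and 116 in WT (log2FC 1.02 ± 0.16, adjusted p = 8.65e-05), and its partner TNIP1 (log2FC 0.38 ± 0.06, adjusted p = 0.000241). In Kashlid, TNFAIP3 thus lay between its SUN2KO and WT levels, while CCL5 lay above WT.

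The cyclooxygenases moved in opposite directions. Arachidonic acid, released by the phospholipase PLA2G4A, is turned into prostaglandins by the constitutive PTGS1 or the inducible PTGS2. PTGS2 had 372 and 269.7 CPM in Kashlid, 49.7 and 42.1 in SUN2KO and 35.7 and 37.0 in WT (6.99-fold over SUN2KO, 2.81 ± 0.11, adjusted p = 1.86e-13), and headed the genes that went further. PTGS1 had 58.7 and 58.8 CPM in Kashlid, 121 and 119 in SUN2KO and 18.8 and 26.0 in WT (log2FC -1.03 ± 0.08, adjusted p = 1.76e-08). PLA2G4A had 80.7 and 80.7 CPM in Kashlid, 42.3 and 41.5 in SUN2KO and 56.7 and 54.5 in WT (adjusted p = 1.68e-09). The prostaglandin E receptor gene PTGER4 rose (log2FC 0.49 ± 0.11, adjusted p = 0.00324, and 0.0598 without SUN2KO replicate 1). In all, 3 of 12 measured genes of the pathway rose and 1 fell, around a median of 0.13 (-0.01 without Kashlid replicate 1, 0.08 without Kashlid replicate 2 and 0.04 without SUN2KO replicate 1).

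Of 39 unfolded protein response and ATF4 genes, 24 were lowered by the knockout and 18 returned toward WT. The endoplasmic reticulum raises chaperones and degradation factors through ATF6, IRE1 and XBP1, and amino acid and stress genes through PERK and ATF4. Of 39 measured, 23 rose in Kashlid against SUN2KO, 1 fell (3 without Kashlid replicate 1) and 15 did not pass, with a median of 0.30; in SUN2KO against WT, 3 had risen and 24 fallen, with a median of -0.30, and in Kashlid against WT the median was 0.00, with 8 higher and 10 lower. HSPA5, the chaperone BiP, had 1945 and 2224 CPM in Kashlid, 1284 and 1237 in SUN2KO and 2061 and 1974 in WT (log2FC 0.73 ± 0.05, adjusted p = 7.04e-10). HERPUD1, of the degradation machinery, had 115 and 123 CPM in Kashlid, 71.5 and 65.0 in SUN2KO and 94.6 and 99.1 in WT (log2FC 0.80 ± 0.06, adjusted p = 8.49e-09). For HSPA5 the Kashlid and WT libraries lay on one level above SUN2KO, and HERPUD1 passed WT. The chaperone HSP90B1 came part of the way, with 1115 and 1172 CPM in Kashlid, 816 and 790.1 in SUN2KO and 1502 and 1481 in WT, as did its partners PDIA4 (log2FC 0.64 ± 0.05) and DNAJC3 (log2FC 0.61 ± 0.06). Further along the ATF4 arm, the 2 Kashlid libraries disagreed: STC2, a secreted glycoprotein, had 189 and 95.3 CPM in Kashlid and 89.3 and 75.4 in SUN2KO, and ASNS, asparagine synthetase, had 57.5 and 27.6 in Kashlid and 27.9 and 25.3 in SUN2KO. Both calls (adjusted p = 0.00516 and 0.0228) were lost without Kashlid replicate 1 (0.254 and 0.839), without SUN2KO replicate 2 (0.0981 and 0.172) and in DESeq2, and that of ASNS also without SUN2KO replicate 1 (0.113). Heat shock genes were lower in Kashlid: of 21, 0 rose and 13 fell (6 without SUN2KO replicate 1), with a median of -0.23. They included the small chaperone HSPB8 (log2FC -1.06 ± 0.09), the co-chaperone DNAJA1 (log2FC -0.39 ± 0.06), HSPH1 (log2FC -0.35 ± 0.05) and BAG3 (log2FC -0.36 ± 0.09), with adjusted p of at most 0.00446, and 0.0662 for BAG3 without SUN2KO replicate 1.

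Matrix genes went both ways. Of 42 collagens and matrix glycoproteins, 18 rose (11 without SUN2KO replicate 1), 10 fell and 14 did not pass, with a median of 0.14 (0.09 without SUN2KO replicate 1), and 15 were returned. FN1, fibronectin, had 699.5 and 741 CPM in Kashlid, 295 and 292 in SUN2KO and 795 and 849 in WT (log2FC 1.30 ± 0.05, adjusted p = 1.58e-13). Kashlid was nearer to WT than to SUN2KO but stayed below WT (log2 fold change of Kashlid over WT -0.19 ± 0.05, adjusted p = 0.00369). The small proteoglycan DCN, decorin, had 14.2 and 16.3 CPM in Kashlid, 6.55 and 6.82 in SUN2KO and 12.2 and 12.2 in WT. THBS1, thrombospondin, fell further, with 23.0 and 17.0 CPM in Kashlid, 42.9 and 33.5 in SUN2KO and 84.8 and 83.8 in WT (log2FC -0.93 ± 0.12, adjusted p = 7.79e-06). Other large changes were in the collagens COL8A1 (log2FC 2.64 ± 0.27), COL5A3 (log2FC 1.97 ± 0.18) and COL13A1 (log2FC 2.39 ± 0.63), the elastic fibre protein FBLN5 (log2FC -1.34 ± 0.29) and the laminin chain LAMA1 (log2FC -1.74 ± 0.17), at adjusted p of at most 0.0109. COL13A1, at 16 and 19 counts in Kashlid and 4 and 3 in SUN2KO, lost its call in DESeq2 (0.0596), without Kashlid replicate 2 (0.0547) and without either SUN2KO library (0.0813 and 0.102), and FBLN5 without SUN2KO replicate 1 (0.0511).

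Among 29 matrix proteases and inhibitors, 12 rose and 6 fell, with a median of 0.14 (0.03 without Kashlid replicate 2 and 0.09 without SUN2KO replicate 1); 6 rose without either SUN2KO library in turn, and 3 fell without SUN2KO replicate 1. The membrane protease MMP24 had 4.74 and 6.04 CPM in Kashlid, 14.4 and 11.9 in SUN2KO and 4.99 and 6.87 in WT, back at its WT level (log2FC -1.29 ± 0.18 against SUN2KO, adjusted p = 3.04e-05). ADAM8 rose (log2FC 1.03 ± 0.20, adjusted p = 0.000754), and the urokinase gene PLAU (log2FC 1.09 ± 0.34) and ADAMTS6 (log2FC 0.78 ± 0.26) were called at adjusted p = 0.0272 and 0.0373. Those last calls were lost in DESeq2, without Kashlid replicate 1 (0.206 and 0.469) and without either SUN2KO library (0.214 and 0.0607 for PLAU, 0.277 and 0.0705 for ADAMTS6). The gelatinase MMP2 rose (log2FC 0.46 ± 0.05, adjusted p = 2.3e-06).

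Adhesion and contractile genes were lower in Kashlid more often than higher. Of 33 genes of integrins and focal adhesions, 4 rose, 13 fell (8 without SUN2KO replicate 1) and 16 did not pass, with a median of -0.14, and 11 of the 33 were new. The integrin subunits were split. ITGA2, a collagen receptor chain, had 255 and 233 CPM in Kashlid, 111 and 101 in SUN2KO and 142 and 158 in WT (log2FC 1.20 ± 0.08, adjusted p = 7.04e-10), and ITGB8 rose (log2FC 1.16 ± 0.19, adjusted p = 0.000178). ITGA1, another collagen receptor chain, had 96.8 and 93.0 CPM in Kashlid, 166 and 150.4 in SUN2KO and 243 and 257 in WT (log2FC -0.74 ± 0.06, adjusted p = 1.23e-08). Their common partner ITGB1 had 483 and 452 CPM in Kashlid, 561 and 521 in SUN2KO and 917 and 945 in WT (log2FC -0.21 ± 0.05, adjusted p = 0.003, and 0.091 without SUN2KO replicate 1). Among the plaque proteins inside the membrane, PARVA (log2FC -0.54), PXN (log2FC -0.26), VCL (log2FC -0.22), FLNA (log2FC -0.29), ACTN1 (log2FC -0.30) and TNS3 (log2FC -0.41) all fell, at adjusted p of at most 0.00153.

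Of 31 targets of SRF and its actin-regulated partner MRTF, 2 rose, 15 fell and 14 did not pass, with a median of -0.15. MYLK3, a myosin light chain kinase, had 1.68 and 1.58 CPM in Kashlid, 18.6 and 18.5 in SUN2KO and 9.99 and 11.4 in WT (log2FC -3.50 ± 0.21, adjusted p = 1.34e-10), and its relative MYLK had 2.37 and 3.34 CPM in Kashlid, 7.36 and 7.36 in SUN2KO and 5.05 and 8.35 in WT (log2FC -1.36 ± 0.24, adjusted p = 0.000417). MYL9, a light chain that MYLK acts on, had 20.8 and 22.5 CPM in Kashlid, 49.0 and 42.4 in SUN2KO and 60.0 and 59.3 in WT (log2FC -1.08 ± 0.09, adjusted p = 2.02e-08). In all 3 genes both Kashlid libraries lay below the SUN2KO and WT libraries. NEXN, an actin-binding protein, had 4.05 and 3.28 CPM in Kashlid, 7.90 and 8.22 in SUN2KO and 24.3 and 25.7 in WT (log2FC -1.13 ± 0.17, adjusted p = 4.46e-05), and ACTG2, an actin of smooth muscle, fell (log2FC -1.66 ± 0.34, adjusted p = 0.00138). ACTB, the main cytoplasmic actin, had 3329 and 3541 CPM in Kashlid, 4427 and 4024 in SUN2KO and 4489 and 4407 in WT (log2FC -0.30 ± 0.04, adjusted p = 2.1e-05). Actin genes are alike in sequence and may share reads.

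In the list of YAP and TAZ targets, 25 measured, 1 rose and 6 fell, with a median of -0.07 (-0.18 without Kashlid replicate 1, -0.16 and -0.14 without SUN2KO replicates 1 and 2, and -0.12 without WT replicate 1); 2 fell without SUN2KO replicate 1 and 3 without SUN2KO replicate 2 or in DESeq2. The ectonucleotidase NT5E rose (log2FC 0.76 ± 0.12, adjusted p = 0.000104) and MYOF, myoferlin, fell (log2FC -0.44 ± 0.05, adjusted p = 6.04e-07). CTGF, a classic target, was called at -0.79 ± 0.27 (adjusted p = 0.0436), which was lost under 7 alternatives, with adjusted p between 0.0547 with library size only and 0.301 without Kashlid replicate 2. FOXF2, a forkhead factor (log2FC -0.57 ± 0.16, adjusted p = 0.0171), lost its call in DESeq2 (0.0701), without Kashlid replicate 1 (0.0901) and without either SUN2KO library (0.0603 and 0.103). Among 22 genes for LINC complex and envelope proteins, 2 rose and 1 fell, where 8.92% of all genes rose and 9.13% fell, with a median of -0.09 (-0.06 without Kashlid replicate 2). Beside SUN2 these were SYNE3, the nesprin that binds plectin, with 6.42 and 5.46 CPM in Kashlid, 2.76 and 2.63 in SUN2KO and 1.78 and 1.19 in WT (log2FC 1.14 ± 0.23, adjusted p = 0.00135), and the lamina-associated TMPO (log2FC -0.20 ± 0.05, adjusted p = 0.00888, and 0.0867 without SUN2KO replicate 1). SUN1, SYNE1, SYNE2 (which encodes Nesprin-2), LMNA and LMNB1 were at 0.10 ± 0.07, -0.20 ± 0.10, -0.10 ± 0.06, -0.13 ± 0.05 and -0.14 ± 0.05, without a call; SYNE1 passed without Kashlid replicate 1 (0.00548), and LMNA and LMNB1 passed without Kashlid replicate 2 (0.00744 and 0.0458).

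**Figure D4:**
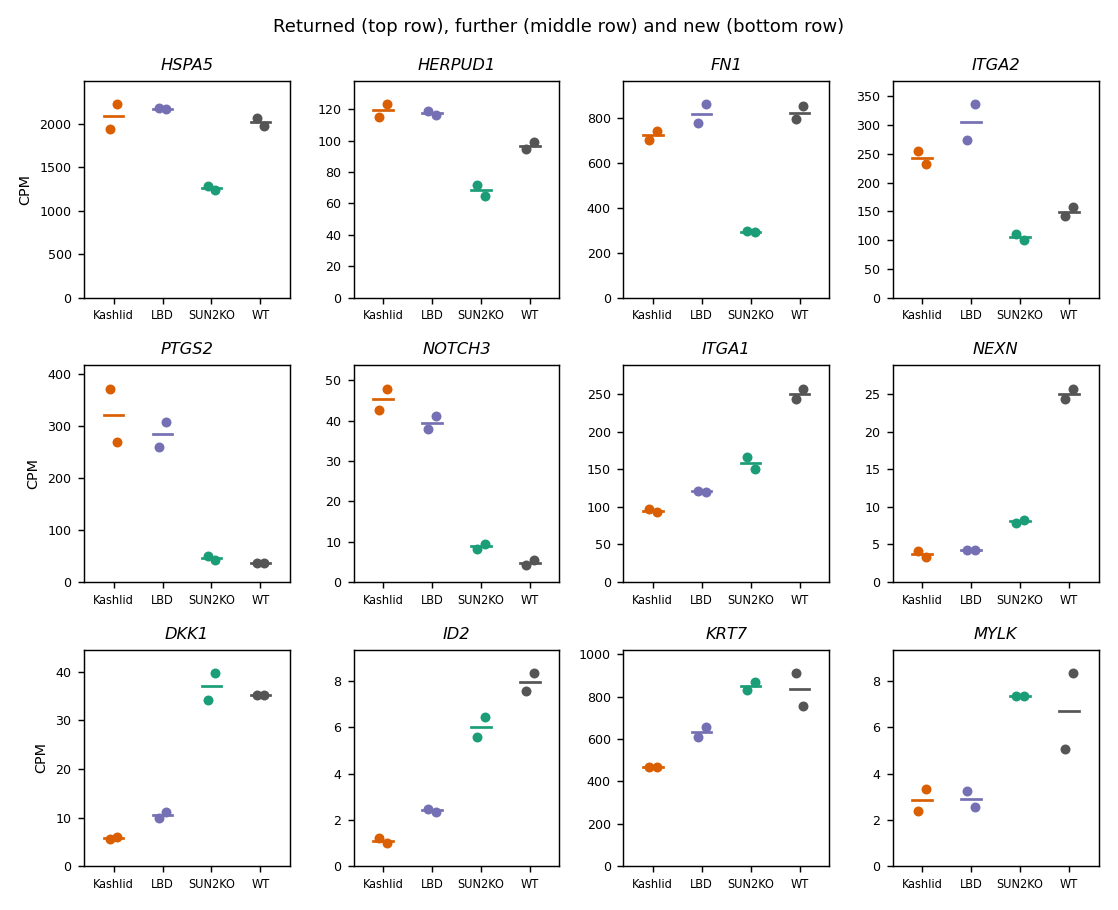
CPM in each library (points, 2 per group; short lines are group means) of 4 genes each from the returned (top), further (middle) and new (bottom) classes, in Kashlid, LBD, SUN2KO and WT. HSPA5 stands at 1945 and 2224 CPM in Kashlid against 1284 and 1237 in SUN2KO and is level with WT, NEXN at 4.05 and 3.28 in Kashlid against 7.90 and 8.22 in SUN2KO lies past the knockout, and DKK1 at 5.61 and 5.98 in Kashlid against 34.3 and 39.8 in SUN2KO departs from a level that SUN2KO and WT share.

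Genes of cholesterol synthesis were lower in Kashlid in 16 of 26 cases. Without SUN2KO replicate 1, 10 fell and 0 rose; with all libraries, 2 rose and 8 did not pass, with a median of -0.33, and 9 of the 26 were in the further class. Squalene epoxidase, SQLE, had 20.8 and 23.2 CPM in Kashlid, 44.0 and 37.1 in SUN2KO and 61.9 and 62.3 in WT (log2FC -0.88 ± 0.10, adjusted p = 2.27e-06), and the isopentenyl diphosphate isomerase IDI1 had 21.5 and 26.0 CPM in Kashlid, 39.1 and 37.6 in SUN2KO and 60.0 and 58.7 in WT (log2FC -0.69 ± 0.09, adjusted p = 1.86e-05). The sterol methyl oxidase MSMO1 (log2FC -0.74 ± 0.08) also fell, and HMGCS1, the synthase early in the pathway (log2FC -0.63 ± 0.06), had been slightly raised by the knockout (log2FC 0.16). The 2 that rose were the phosphomevalonate kinase PMVK and the regulator SREBF1 (log2FC 0.22 ± 0.06, adjusted p = 0.016, 0.126 without Kashlid replicate 2 and 0.354 without SUN2KO replicate 1).

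Other genes named for their size in the further class were NOTCH3, a receptor, with 42.7 and 48.0 CPM in Kashlid, 8.28 and 9.30 in SUN2KO and 4.10 and 5.34 in WT (5.15-fold over SUN2KO, adjusted p = 3.65e-12), and the membrane carbonic anhydrase CA12, with 17.6 and 22.5 CPM in Kashlid, 6.87 and 8.81 in SUN2KO and 4.93 and 5.23 in WT. In the lower direction they were ROR2, a receptor for Wnt5a, with 6.42 and 6.86 CPM in Kashlid, 18.9 and 21.3 in SUN2KO and 26.5 and 24.4 in WT, the zinc finger protein BNC2 (log2FC -1.45 ± 0.17), VEPH1 (log2FC -1.28 ± 0.24) and the sodium chloride cotransporter SLC12A3 (log2FC -1.14 ± 0.11), all at adjusted p of at most 0.000749. Kashlid lay outside the range of SUN2KO and WT in each. For CA12, ROR2 and BNC2 the authors' deposited DESeq2 test did not call SUN2KO against WT (adjusted p = 0.0826, 0.0813 and 0.15). Their place in the further class thus depends on the test, while NOTCH3, VEPH1 and SLC12A3 were called there too. Of 23 Notch pathway genes 7 rose (4 without SUN2KO replicate 1) and 1 fell, with a median of 0.16. Beside NOTCH3 they included the ligand JAG1, which had 36.1 and 25.0 CPM in Kashlid, 16.2 and 16.3 in SUN2KO and 35.0 and 39.0 in WT (log2FC 0.91 ± 0.13, adjusted p = 4.29e-05), and the target HES4 (log2FC 0.84 ± 0.18, adjusted p = 0.00204, and 0.0794 without SUN2KO replicate 1). The noncanonical ligand DNER fell (log2FC -1.05 ± 0.18, adjusted p = 0.000237).

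The largest returned genes outside the sets above were STC1, a secreted glycoprotein hormone, and UNC13A, a vesicle-priming protein. STC1 had 9.02 and 16.1 CPM in Kashlid, 0.162 and 1.02 in SUN2KO and 44.9 and 56.6 in WT (log2FC 4.38 ± 0.66, adjusted p = 6.75e-05), resting on 3 and 19 counts in SUN2KO, and it remained under WT. UNC13A had 30.4 and 30.2 CPM in Kashlid, 4.27 and 3.49 in SUN2KO and 9.21 and 6.87 in WT (log2FC 2.96 ± 0.15, adjusted p = 4.2e-12) and went past WT. Downward, PZP, a protease-trapping alpha-macroglobulin, had 0.463 and 0.704 CPM in Kashlid, 14.4 and 15.4 in SUN2KO and 6.66 and 3.01 in WT (log2FC -4.66 ± 0.33, adjusted p = 2.25e-09). WISP2, a secreted CCN family protein, had 30.1 and 27.6 CPM in Kashlid, 124 and 134 in SUN2KO and 76.4 and 86.4 in WT (log2FC -2.16 ± 0.08, adjusted p = 1.55e-13). ALPP, placental alkaline phosphatase, fell 4.76-fold (adjusted p = 8.08e-16); its near-identical relatives may share reads with it. PZP, WISP2 and ALPP had been raised by the knockout and ended below WT in Kashlid.

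Of the genes new in Kashlid with a mean of at least 5 CPM, leaving out loci without a product name, the 4 with the largest decreases were DKK1, ID2, ATOH8 and PPP2R2B. DKK1, a secreted Wnt antagonist (chromosome 10, 54074041 to 54077417 on hg19), had 5.61 and 5.98 CPM in Kashlid, 34.3 and 39.8 in SUN2KO and 35.3 and 35.3 in WT (6.39-fold lower than in SUN2KO, -2.68 ± 0.12, adjusted p = 1.06e-12). ID2, which sequesters helix-loop-helix factors, had 1.21 and 0.997 CPM in Kashlid, 5.57 and 6.45 in SUN2KO and 7.55 and 8.35 in WT (log2FC -2.43 ± 0.25, adjusted p = 5.51e-07). The helix-loop-helix factor ATOH8 (log2FC -2.45 ± 0.24) and PPP2R2B, a regulatory subunit of protein phosphatase 2A (log2FC -2.13 ± 0.23), also fell (with adjusted p at or below 8.09e-07). In DKK1 and ID2 the 2 Kashlid libraries were close to each other and well below the SUN2KO and WT libraries. In LBD both genes also lay below SUN2KO and WT, with the values given further on. Of 26 Wnt pathway genes 2 rose and 8 fell (5 without either SUN2KO library in turn), with a median of -0.10. The receptor FZD4 had 72.2 and 69.6 CPM in Kashlid, 38.2 and 39.0 in SUN2KO and 37.5 and 37.1 in WT (log2FC 0.88 ± 0.07, adjusted p = 3.01e-08). DKK3 (log2FC -0.92 ± 0.27, adjusted p = 0.0214) lost its call in DESeq2 (0.0933), without Kashlid replicate 1 (0.126) and without SUN2KO replicate 2 (0.155).

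Among proliferation genes, decreases outnumbered increases. Of 48, 22 fell, 2 rose and 24 did not pass, with a median of -0.17, and 17 of the 48 were new. FOXM1, the transcription factor of the mitotic programme, had 121 and 124 CPM in Kashlid, 166 and 167 in SUN2KO and 163 and 166 in WT (log2FC -0.44 ± 0.05, adjusted p = 3.5e-06), and KIF20A, a kinesin of cytokinesis, had 89.6 and 99.0 CPM in Kashlid, 134 and 130.5 in SUN2KO and 146 and 138 in WT (log2FC -0.49 ± 0.06, adjusted p = 5.67e-06). E2F8 (log2FC -0.63 ± 0.12), CDC25C (log2FC -0.51 ± 0.12) and the centromeric histone CENPA (log2FC -0.45 ± 0.11) fell at adjusted p of at most 0.00772. CDC25C lost its call without Kashlid replicate 2 (0.0533) and SUN2KO replicate 1 (0.142), and CENPA without Kashlid replicate 2 (0.0795) and SUN2KO replicate 2 (0.125). CCNE1 and E2F1, which act at the entry to S phase, were the 2 that rose (log2FC 0.37 ± 0.08 and 0.24 ± 0.08, adjusted p = 0.00263 and 0.0266), E2F1 not in DESeq2 (0.0742), without Kashlid replicate 1 (0.167) or without SUN2KO replicate 2 (0.261). In 28 p53 targets, 2 rose (0 without Kashlid replicate 1 or SUN2KO replicate 1) and 8 fell (5 without SUN2KO replicate 2). Their median of -0.03 became -0.13 without Kashlid replicate 1, -0.05 without Kashlid replicate 2, -0.02 without SUN2KO replicate 1 and 0.00 with library size only. The stress cytokine GDF15 had 27.8 and 16.4 CPM in Kashlid, 37.2 and 35.6 in SUN2KO and 64.5 and 73.1 in WT (log2FC -0.72 ± 0.14, adjusted p = 0.00124, and 0.0631 in DESeq2), and TP53INP1 fell (log2FC -0.68 ± 0.14, adjusted p = 0.00105). SERTAD1 (log2FC -0.61 ± 0.15) and SESN1 (log2FC -0.50 ± 0.13), at adjusted p = 0.00547 and 0.0101, lost their calls without Kashlid replicate 1 (0.0584 and 0.162) and without SUN2KO replicate 1 (0.0969 and 0.184).

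Antioxidant genes under NRF2 and the AKR1C reductases were lower. Of 23, 13 fell, 1 rose and 9 did not pass, with a median of -0.25; 8 fell without Kashlid replicate 1 or without SUN2KO replicate 1. NQO1, the quinone reductase, had 256 and 267 CPM in Kashlid, 423 and 381 in SUN2KO and 325 and 306 in WT (log2FC -0.62 ± 0.06, adjusted p = 8.14e-08), and AKR1B1, aldose reductase, had 256 and 239.9 CPM in Kashlid, 387 and 366 in SUN2KO and 596 and 605 in WT (log2FC -0.60 ± 0.05, adjusted p = 9.8e-09). OSGIN1 fell (log2FC -0.99 ± 0.18, adjusted p = 0.000458), and AKR1C1, whose close paralogs may share its reads, fell (log2FC -0.58 ± 0.13, adjusted p = 0.00272, and 0.057 without SUN2KO replicate 2). NQO1 and AKR1C1 had been raised by the knockout, AKR1B1 lowered.

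Epithelial genes, of which the knockout had raised 14 of 26 measured, were lower in Kashlid than in SUN2KO more often than higher. Of the 26, 2 rose, 8 fell and 16 did not pass; the median of -0.02 turned to 0.01 with library size only and without SUN2KO replicate 2, and to 0.02 without Kashlid replicate 2, and it was -0.08 without Kashlid replicate 1, -0.06 without SUN2KO replicate 1, where 0 rose, and closer to 0 without either WT library. The summed level of all 33 listed genes was 3918 to 4060 CPM in Kashlid, 4982 to 5146 in SUN2KO and 4002 to 4184 in WT. KRT8 had 1056 and 1181 CPM in Kashlid, 1632 and 1657 in SUN2KO and 1064 and 1024 in WT, back at its WT level (log2FC -0.56 ± 0.05, adjusted p = 1.59e-08), and KRT7 had 469 and 468 CPM in Kashlid, 831 and 871 in SUN2KO and 912 and 757 in WT (log2FC -0.86 ± 0.06, adjusted p = 2.27e-09). KRT81, a hair keratin with close relatives, fell (log2FC -0.75 ± 0.06, adjusted p = 5.78e-09). The adhesion molecule EPCAM fell (log2FC -0.74 ± 0.19, adjusted p = 0.00952), but not without Kashlid replicate 1 (0.0872) or SUN2KO replicate 2 (0.113). Of 11 measured luminal markers, KRT8, KRT18 and ELF3 fell, and MLPH, melanophilin (log2FC 1.38 ± 0.30, adjusted p = 0.0026), and TFF1 (log2FC 1.19 ± 0.31, adjusted p = 0.00949) rose, the call of TFF1 being lost without Kashlid replicate 1 (0.0601) and SUN2KO replicate 1 (0.118). Among 20 EMT factors and mesenchymal genes, 1 rose and 4 fell (2 without either SUN2KO library, 1 without Kashlid replicate 2), with a median of -0.05 (-0.13 without Kashlid replicate 1, -0.03 and -0.10 without SUN2KO replicates 1 and 2). PDGFRB, a growth factor receptor, had 4.34 and 4.81 CPM in Kashlid, 9.20 and 9.46 in SUN2KO and 16.1 and 18.2 in WT (log2FC -1.03 ± 0.16, adjusted p = 9.46e-05). SNAI1 (log2FC 0.55 ± 0.18, adjusted p = 0.0366), SMAD3 (log2FC -0.42 ± 0.10, 0.00424) and NRP2 (log2FC -0.24 ± 0.07, 0.0247) did not keep their calls: without Kashlid replicate 2 they were at 0.0686, 0.0503 and 0.134, SNAI1 and NRP2 were also lost without either SUN2KO library (adjusted p of 0.133 and 0.151 for SNAI1, 0.111 and 0.13 for NRP2), and SNAI1 without Kashlid replicate 1 (0.105) and narrowly without either WT library (0.0507 and 0.0506).

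Counts and medians of hypoxia and immediate early genes shifted as single libraries were left out. Of 36 hypoxia and glycolysis genes, 12 rose and 7 fell, with a median of 0.08 (0.14 without Kashlid replicate 1 and 0.03 without Kashlid replicate 2); 5 rose and 3 fell without SUN2KO replicate 1, 4 fell without SUN2KO replicate 2, and 6 rose in DESeq2. NDRG1, a hypoxia-induced gene, had 238 and 370.5 CPM in Kashlid, 119 and 159.6 in SUN2KO and 165 and 252 in WT, with the second library higher in each group (log2FC 1.13 ± 0.25, adjusted p = 0.00256, and 0.0985 without SUN2KO replicate 1). CA9, a carbonic anhydrase (log2FC 1.06 ± 0.33, adjusted p = 0.0307), had the same pattern and lost its call without Kashlid replicate 2 (0.194), without SUN2KO replicate 1 (0.368), in DESeq2 (0.37) and under the stricter filter (0.0516). The glucose transporter SLC2A3 was steadier, with 287 and 309.6 CPM in Kashlid, 155 and 160.2 in SUN2KO and 171 and 188 in WT (log2FC 0.92 ± 0.11, adjusted p = 4.72e-06). Of 28 immediate early genes 11 rose and 1 fell, with a median of 0.30 that was 0.00 without Kashlid replicate 1 and 0.45 without Kashlid replicate 2; 4 rose without Kashlid replicate 1 or SUN2KO replicate 1, 5 without SUN2KO replicate 2, 6 in DESeq2 and 19 without Kashlid replicate 2. SPRY4 (log2FC 0.86 ± 0.17), DUSP4 (log2FC 0.59 ± 0.09) and IER3 (log2FC 0.57 ± 0.08) rose (adjusted p of at most 0.00119). DUSP5, at 26.1 and 14.8 CPM in Kashlid and 13.1 and 13.8 in SUN2KO, was called (adjusted p = 0.036) but not without Kashlid replicate 1 (0.671) or either SUN2KO library (0.221 and 0.135), in DESeq2 (0.335) or under the stricter filter (0.0507). EGR1, raised by the knockout, had 32.3 and 18.4 CPM in Kashlid, 25.4 and 21.8 in SUN2KO and 3.57 and 2.33 in WT and was not called between the first 2 (adjusted p = 0.733, and 0.0184 without Kashlid replicate 2).

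**Figure D5:**
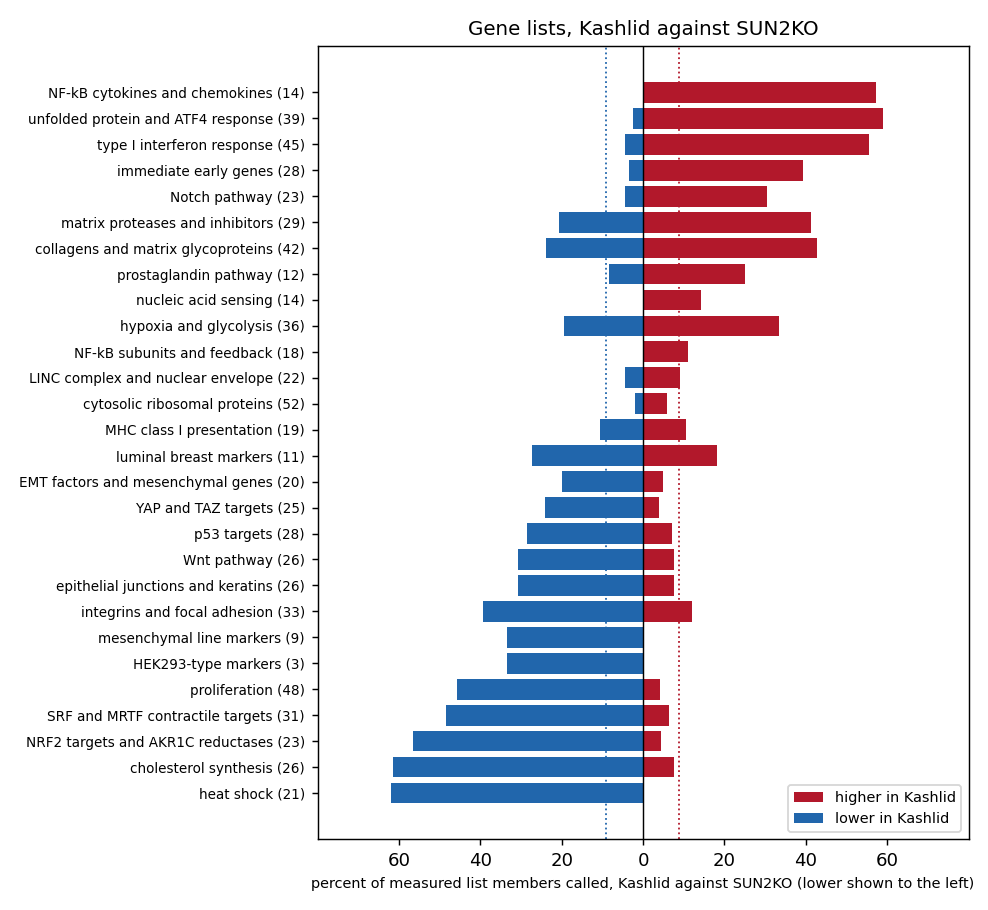
Percent of the measured members of each gene list called higher (right, red) or lower (left, blue) in Kashlid against SUN2KO, with the number measured in brackets; dotted lines mark the same for all genes, 8.92% higher and 9.13% lower. Interferon, cytokine and unfolded protein genes lie furthest to the right, and heat shock, cholesterol, NRF2 and contractile genes furthest to the left; the luminal, mesenchymal line and HEK293-type lists are markers of cells.

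Against the other truncation Kashlid differed in far fewer genes, with 408 calls (2.91%), 179 higher (1.28%) and 229 lower (1.63%), and 16 of at least 2-fold (0.114%). Counted without Kashlid replicate 2 there were 839 calls. Because Kashlid minus LBD equals the difference of their changes from SUN2KO, this is also the test of whether a change from the knockout is larger in one truncation than in the other. Of the 1033 new genes, 102 (9.87%) were called against LBD. So were 73 of the 738 returned genes (9.89%) and 74 of the 486 further genes (15.2%). The classes were formed with the same Kashlid libraries, so these shares carry no test. In the interferon list 0 were higher and 3 lower in Kashlid than in LBD. For RSAD2, OAS2, OASL, IFIT1, ISG15 and CCL5 the log2FC of Kashlid over LBD was 0.23 ± 0.17, -0.13 ± 0.15, -0.12 ± 0.06, 0.04 ± 0.09, -0.08 ± 0.10 and -0.00 ± 0.10, none of them called (adjusted p of at least 0.354). OAS2 had 15.9 and 17.7 CPM in Kashlid and 17.3 and 19.4 in LBD. PTGS2 and NOTCH3 were likewise without a call (log2FC 0.18 ± 0.10 and 0.20 ± 0.10), as was HSPA5 (log2FC -0.06 ± 0.05), so a rise over the knockout in these genes was not shown to be particular to either line.

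Other genes were lower in Kashlid than in LBD, and log2FC stands here for Kashlid over LBD. Calls of named genes against LBD are from the main fit only, were not followed under the alternatives, and no single LBD library was left out. DKK1 had 5.61 and 5.98 CPM in Kashlid and 10.0 and 11.1 in LBD (log2FC -0.86 ± 0.14, adjusted p = 0.00156), and ID2 1.21 and 0.997 in Kashlid and 2.49 and 2.33 in LBD (log2FC -1.12 ± 0.29, adjusted p = 0.0383). Integrins and focal adhesion genes had 0 higher and 10 lower of 33, with ITGA1 at -0.35 ± 0.06 and ITGA2 at -0.33 ± 0.08 (adjusted p = 0.00268 and 0.0209). NT5E had 31.8 and 33.5 CPM in Kashlid and 47.9 and 57.8 in LBD (log2FC -0.69 ± 0.11, adjusted p = 0.00142). KRT7 and KRT81 were lower (log2FC -0.43 ± 0.06 and -0.55 ± 0.06, adjusted p = 0.000592 and 3.1e-05), and so were SLC12A3 (log2FC -0.75 ± 0.11), BNC2 (log2FC -0.78 ± 0.18), PTGS1 (log2FC -0.52 ± 0.09) and ALPP (log2FC -0.54 ± 0.07), at adjusted p of at most 0.0193. Matrix proteases and inhibitors had 7 lower of 29 and proliferation genes 8 lower and 1 higher of 48. Heat shock genes had 6 lower of 21 and NRF2 genes 6 lower of 23. Over all genes, 1.28% were higher and 1.63% lower in Kashlid than in LBD.

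On the higher side stood UNC13A, with 30.4 and 30.2 CPM in Kashlid and 20.1 and 19.9 in LBD (log2FC 0.60 ± 0.12, adjusted p = 0.00705), and EGR1, with 32.3 and 18.4 CPM in Kashlid and 10.1 and 10.1 in LBD (log2FC 1.33 ± 0.19, adjusted p = 0.000613). Cytosolic ribosomal protein genes had 24 of 52 higher and 0 lower in Kashlid than in LBD, with a median of 0.16. Against SUN2KO the same genes gave 3 higher and 1 lower, with a median of 0.03 (12 higher with library size only, and 1 higher without either SUN2KO library). Ribosomal genes called against SUN2KO included RPL3, with a log2 fold change of Kashlid over SUN2KO of 0.23 ± 0.04 (adjusted p = 9.64e-05). RPL28 and RPL6 were at 0.17 ± 0.04 and -0.13 ± 0.04 in the same comparison (adjusted p of at most 0.0203). The calls of RPL28 and RPL6 were lost without SUN2KO replicate 1. That of RPL6 was also lost without Kashlid replicate 1, and that of RPL28 without SUN2KO replicate 2. Pseudogene copies may share their reads.

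Neighbouring genes were also compared. Over 342 windows of 5 Mb with at least 15 tested genes, the medians of the log2 fold change of Kashlid over SUN2KO had an SD of 0.0602 and ran from -0.21 to 0.19, with 0 windows beyond 0.3 in size. For Kashlid over WT the SD was 0.197 with 45 windows beyond 0.3, and for SUN2KO over WT 0.193 with 48. Regional medians were thus closer to 0 between Kashlid and SUN2KO than between either line and WT. The WT comparisons share their WT libraries. On chromosome 21 the window medians over WT ran from -0.42 to -0.35 in SUN2KO and from -0.45 to -0.37 in Kashlid. On chromosome 10 the window at 10 to 15 Mb was at -0.52 and -0.58, and that at 125 to 130 Mb at 0.69 and 0.76. Called genes in such windows count among the knockout changes, and the part of regional shifts in them was not tested.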

How the data were processed

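RNA was extracted from 10000000 cells per sample and sequenced as paired-end NEBNext Ultra libraries on a NovaSeq instrument, per the labels' protocols. Per the submitters' processing notes, reads were trimmed with Trim Galore, aligned to hg19 with STAR 2.7.1a and counted with HTSeq, with bedtools 2.24.0 also named. The sources used here name no annotation version and no strand setting, so reads of overlapping, antisense or near-identical genes may be split or shared. The authors deposited raw counts per gene symbol, with 0 rows that name no gene, and 3 comparison tables from DESeq2, of which log2 fold changes and adjusted p-values for Kashlid and SUN2KO against WT were read. Another 12 columns of those files, values per library without names, were not used. The authors' deposited tables called 4071 genes in Kashlid against WT and 3732 in SUN2KO against WT, of which 4066 and 3690 were also called here. In all, 6232 and 5137 genes were called here, so the class of some genes depends on the test.

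Counts were tested with edgeR 4.0.16 in R 4.3.3 (TMM scaling, its default low-count filter by group, 1 term per group over all 8 libraries, quasi-likelihood test, two-sided, Benjamini-Hochberg adjustment over 14016 genes, called at adjusted p under 0.05); CPM values in the text are TMM-scaled except the summed marker levels, which are scaled by library size. With 8 libraries in 4 groups, 4 residual degrees of freedom remained. The step was tested on simulated data for Kashlid against SUN2KO with 13724 genes, of which 200 were changed: 92% of the 2-fold and 74% of the 1.5-fold changes were recovered, with 9 false calls in 175. Counting intervals of ratios are exact at 95% and cover counting error only.

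Members and gene lists were chosen with earlier results of these data known. Genes named in the text are SUN2, the 4 largest changes each way in the returned, further and new classes with a mean of at least 5 CPM (leaving out loci without a product name and small structured RNAs), and up to 4 called members of each list by size. Genes outside that rule were named after their values were seen, among them FN1, DCN, THBS1, LAMA1, MMP2, IL6, IFIT2, IFIT3, ISG15, DDX58, DDX60, STAT2, IRF9, MYL9, ITGB1, the plaque proteins, ACTB, HSP90B1, DNAJC3, PDIA4, FOXM1, CCNE1, E2F1, SREBF1, KRT18 and EGR1. Some genes that the lists count are not reported here by name. Alternatives were median-ratio and library-size scaling, testing without a low-count filter or with one of 5 CPM in 2 libraries, DESeq2 1.42.0, a fit without LBD, a replicate block, a 2-fold limit and leaving out each Kashlid, SUN2KO and WT library. Promoter sequences are from RefSeq on GRCh38.p14 and gene positions on hg19 from the deposited tables.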

Additional observations from a re-analysis of the deposited data

How the results depend on the processing

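Leaving out 1 library at a time gave 1186 to 2375 calls in Kashlid against SUN2KO, 3569 to 5694 in SUN2KO against WT, 4720 to 6010 in Kashlid against WT and 285 to 839 in Kashlid against LBD, with 341 to 781 returned, 184 to 510 further and 584 to 944 new genes; a group left with 1 library was assumed to vary like the others. With DESeq2, 474 genes returned and 322 went further. Without a low-count filter, Kashlid against LBD had 775 calls. With at least 2-fold asked of every comparison used, the counts were 320 for Kashlid against SUN2KO, 630 for SUN2KO against WT, 918 for Kashlid against WT, 79 returned, 16 further and 166 new. The cause of these shifts was not tested. Among the named genes, RMRP and RPPH1 changed sign without Kashlid replicate 2, with log2 fold changes between -0.41 and 6.15 for RMRP and between -0.39 and 6.62 for RPPH1 as libraries were left out; that library holds 535 and 744 of their counts, against 7 and 6 in Kashlid replicate 1. The other named genes with a call kept their direction under the alternatives that gave them a value. DESeq2 ended 23 calls of named genes, and leaving out SUN2KO replicate 1 ended 35, the most of any library. Library size as the only scaling moved the median of all genes to 0.04, against 0.01 with TMM.

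The fit with the replicate number as a block had 2787 calls in Kashlid against SUN2KO, with 834 returned, 575 further and 1108 new genes, and 581 calls in Kashlid against LBD; it ended no call of a named gene. Deviations of same-numbered libraries correlated at -0.007 to 0.084, under the 0.1 set for pairing, and no label ties a number to a batch or day, so the block was kept as an alternative, although the hypoxia genes, RPPH1 and RMRP differed by replicate number in the same direction in each group. The fit without LBD gives no value for Kashlid against LBD. Depth limits genes with a few counts per library, such as the interferon ligands, for which no difference could be tested.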

Other observations

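Genes that answer to bone morphogenetic proteins (BMPs), a set put together after the values of ID2 and ATOH8 were seen, were lower in Kashlid than in SUN2KO in several cases. BMPs signal through SMAD1, SMAD5 and SMAD9, and the ID genes and the inhibitors SMAD6 and SMAD7 are common targets. ID1 had 169 and 166 CPM in Kashlid, 319.7 and 304 in SUN2KO and 378 and 353 in WT (log2 fold change of Kashlid over SUN2KO -0.89 ± 0.05, edgeR adjusted p = 1.57e-10). ID3 had 111 and 99.0 CPM in Kashlid, 181 and 173 in SUN2KO and 278 and 264 in WT (-0.75 ± 0.06, adjusted p = 9.79e-09), and SMAD6 had 15.7 and 13.1 CPM in Kashlid, 24.0 and 27.6 in SUN2KO and 34.0 and 37.4 in WT (-0.84 ± 0.12, adjusted p = 3.88e-05). In these 3 genes of the set, Kashlid lay below SUN2KO and SUN2KO below WT. The ligand gene BMP2 fell as well, with 57.6 and 39.0 CPM in Kashlid, 73.7 and 69.7 in SUN2KO and 115 and 114 in WT (-0.57 ± 0.11, adjusted p = 0.000606). MSX1 (-0.51 ± 0.17, adjusted p = 0.0414) was called lower and the ligand gene BMP6 (0.24 ± 0.08, adjusted p = 0.0303) higher, but both lost their calls in DESeq2 (0.142 and 0.0751), without Kashlid replicate 1 (0.193 and 0.16) and without either SUN2KO library; MSX1 also lost it without either WT library and with library size only. SMAD7, HEY1, BAMBI, MSX2, BMP4 and the receptor genes BMPR1A, BMPR2 and ACVR1 were not called. SMAD9 (-1.35 ± 0.33, adjusted p = 0.00621) lost its call without Kashlid replicate 2 (0.0607) and without SUN2KO replicate 2 (0.0732). Against LBD, ID1 was lower in Kashlid (-0.47 ± 0.05, adjusted p = 0.000103), with 169 and 166 CPM in Kashlid and 222 and 242 in LBD, and ID3 and SMAD6 were not called (-0.17 ± 0.06 and -0.09 ± 0.13).

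Hypoxia and glycolysis genes differed between the replicates in the same direction in each group. Of 36, replicate 2 was the higher in 31 in Kashlid, 35 in LBD, 25 in SUN2KO and 33 in WT, with median log2 differences of 0.17, 0.24, 0.05 and 0.08.

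The small structured RNAs RPPH1, the RNA of ribonuclease P, and RMRP, the RNA of a related ribonuclease, were high in single libraries. RPPH1 had 6 and 744 counts in Kashlid, 4 and 170 in LBD, 4 and 13 in SUN2KO and 2 and 9 in WT, and RMRP had 7 and 535 counts in Kashlid, 8 and 180 in LBD, 4 and 16 in SUN2KO and 7 and 17 in WT. Replicate 2 was the higher in every group.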
